A study of Mus musculus with 14 samples.

Results

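The 32 genes described here make, take up, activate and store fatty acids, from the supply of citrate and acetyl-CoA through chain synthesis, desaturation and elongation to the assembly of triglyceride. They were chosen by name: a gene was taken where the name of its probe in the scanner output, or an older synonym, was on a list of the pathway. All 32 of 32 had a probe that passed the filter on dim probes, out of 23646 genes tested.

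Fatty acids are built in the cytosol from acetyl-CoA, which ATP citrate lyase releases from citrate exported by mitochondria, and which acetyl-CoA carboxylase and fatty acid synthase turn into palmitate. Desaturases and elongases modify the chain, acyl-CoA synthetases activate it, and acyltransferases, lipins and diacylglycerol acyltransferases place chains on glycerol to give triglyceride. The mammary gland is known for raising this pathway towards lactation, when alveolar cells make milk fat from glucose and from fatty acids that lipoprotein lipase frees from blood lipoproteins.

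The arrays compared cell populations sorted from dissociated mammary glands of mice in 2 physiological states. The gates P4, P5 and P6 came from wild type mice of the FVB/N-J strain that were either virgin or pregnant, with 2 arrays for each gate and state. By the labels, mammary stem cells (MaSC) are enriched in P4 and luminal progenitors in P5, while P6 holds differentiated mammary epithelial cells with no enrichment. The titles mark both P4 and P5 as CD24+CD29hi and P6 as CD24lo. A further pair of single arrays held lineage-negative cells from virgin FVB/N-Luciferase mice, the transgenic line L2G85, sorted as GFPhi, labelled as enriched for MaSC, and GFPlo, labelled as depleted of them. The ages of the mice, the day of pregnancy, the number of animals per sample and the promoter behind the transgene are not given in the sources used here. Nothing in the labels says that replicates came from separate animals, so p-values here reflect how far these samples differ, and that spread may be technical only.

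Each array was hybridised with Cy5-labelled RNA of sorted cells and Cy3-labelled Universal Mouse Reference RNA, a mix of 11 cell lines. Every value below is a log2 ratio of sorted cells over that reference, so 0 means equal signal and 1 unit means a 2-fold difference. Levels of one gene are compared across arrays, never with those of another gene, because each probe has its own reference level. Values for a pair of arrays are given as replicate 1 and then replicate 2. In limma, which fits a linear model per gene and shares information on the spread across genes, a difference counted as called where p, adjusted by Benjamini-Hochberg over all genes, was under 0.05.

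Some features of the whole series bear on these genes. The arrays had median Cy5 intensities of 70.9 to 196 and detected 66.4% to 86.7% of their probes well above background. Replicate 1 of each pregnant population was scanned apart from the rest and without the extended dynamic range, and these 3 arrays held 111 to 236 saturated Cy5 spots against 0 to 15 elsewhere. Among the genes described here, Fasn and Fabp3 were saturated in pregnant P4 replicate 1 and pregnant P5 replicate 1, Scd1 and Thrsp in pregnant P5 replicate 1, and Lpl in pregnant P5 replicate 1 and pregnant P6 replicate 1. A saturated spot was kept at its value, which may understate the level. The labelled cell types were set against marker lists. All 14 basal markers were higher in virgin P4 than in virgin P5, and 15 of 18 luminal markers were lower. All 14 fibroblast markers were higher in P6 than in P4 and P5 in both states, with array medians of 3.63 to 4.56 in P6, while the luminal median was 0.70 and 0.40 in virgin and -0.27 and -0.04 in pregnant P6. The P6 libraries went against a label of differentiated epithelium, and P6 is named here by its gate. The P5 libraries carried luminal markers in virgin mice although their title gives the same surface markers as that of P4. In pregnant P5, 14 of the 18 luminal markers were lower than in virgin P5, and 10 were higher than in pregnant P6.

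As a body the genes were highest in pregnant P5. The median over the 32 genes lay between -0.22 and 0.11 on the 6 virgin arrays, at 1.55 and 1.25 in pregnant P4, at 3.11 and 3.19 in pregnant P5, and at -0.10 and 0.00 in pregnant P6. It was 0.07 in GFPhi and 0.10 in GFPlo. The group mean was highest in pregnant P5 for 25 genes, in virgin P5 for 4, in pregnant P4 for 2 and in GFPlo for 1. In 21 genes both pregnant P5 arrays stood above each of the other 12 arrays. These counts were not made over all genes tested, so there is no share to set beside them.

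**Figure D1:**
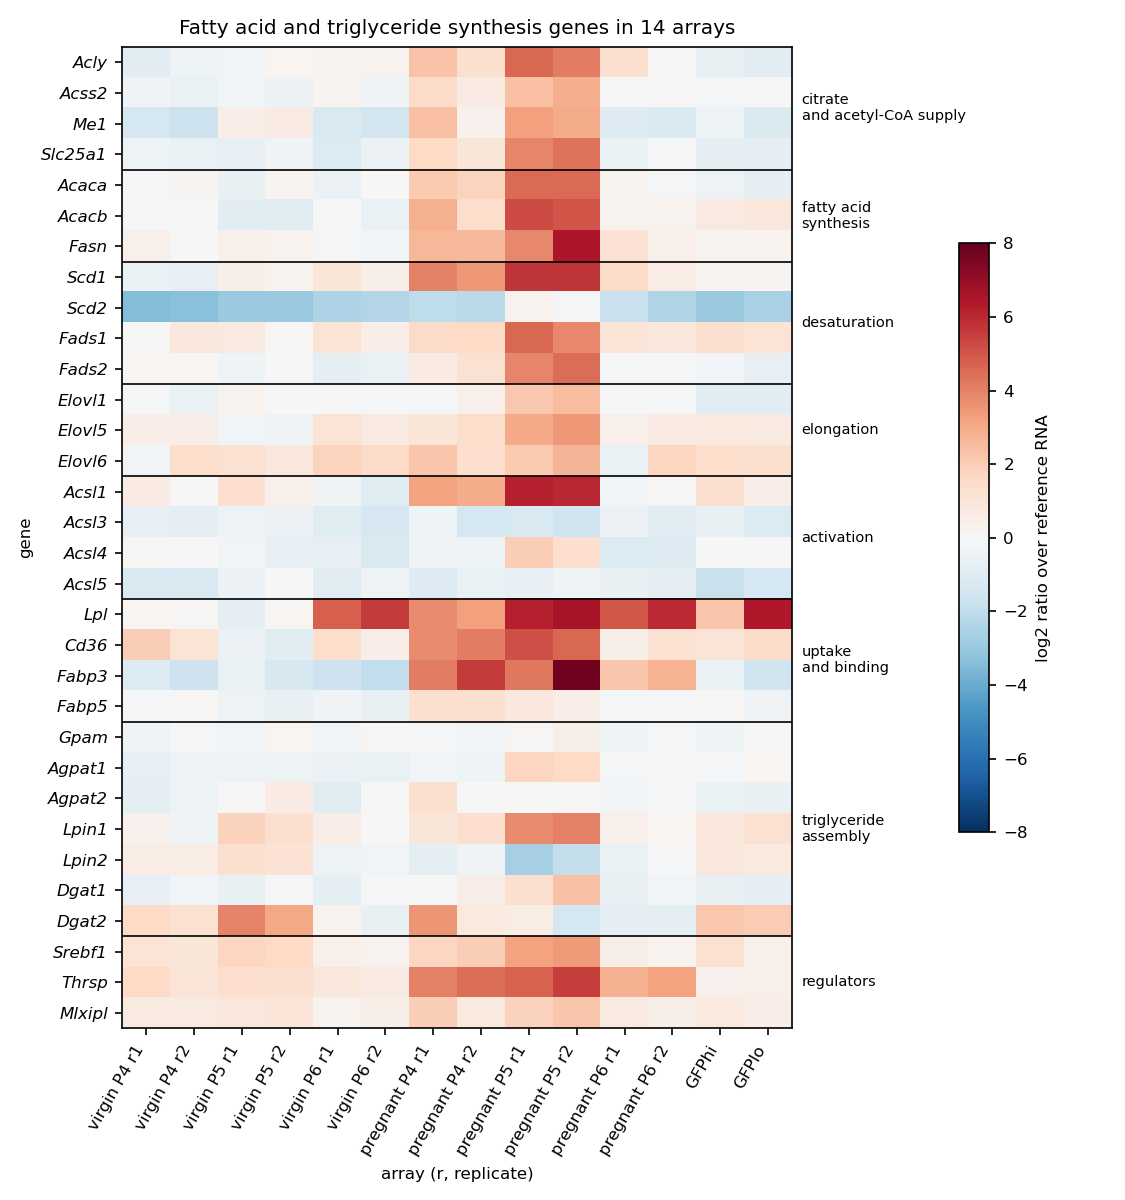
Log2 ratio of sorted cells over reference RNA for the 32 genes (y axis, ordered by role) on the 14 arrays (x axis, grouped by state and gate); colour runs from blue (below the reference) to red (above it). The 2 pregnant P5 columns are the reddest, with member medians of 3.11 and 3.19, and the virgin and P6 columns are close to white for most genes.

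The pathway as a whole is best seen in P5, where the state of the gland was compared within one gate. Of the 32 genes, 26 were called between pregnant and virgin P5 in limma, while 21.4% of all genes tested were called. Higher in pregnancy were 24 genes (10.7% of all genes were called higher), and 2 were lower, Lpin2 and Dgat2. The median difference over the 32 genes was 2.77, and over all genes tested it was 0.04. In 22 of the 24 the rise was at least 4-fold and in 11 at least 16-fold. These folds are of each gene's brightest probe, and dimmer probes of several genes gave less. The fold counts were not made over all genes. In P4, 15 of the 32 genes were called, all higher in pregnancy, where 3.75% of all genes were called, 1.49% higher and 2.25% lower. The median difference was 1.22 against -0.03 over all genes. In P6 Thrsp alone was called, higher in pregnancy, where 0.186% of all genes were called, 0.0465% higher and 0.14% lower. The P6 median difference was 0.24.

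Promoter sequence is shown for 6 genes, each with a match to a motif named below in the run printed. Of these, 5 rose in P5 and span synthesis (Fasn), regulation (Thrsp and Srebf1), elongation (Elovl5) and activation (Acsl1), and 1 fell (Lpin2). Each run is the 100 bases before an annotated start, from RefSeq on GRCm38.p6, and is printed on the gene's own strand. Capitals mark matches on either strand to CCAAT, the core of NF-Y sites, to CACGTG, an E-box that ChREBP-type factors can bind, or to TCACNCCAC, a sterol response element.
Fasn, chr11:120824548-120824647, minus strand: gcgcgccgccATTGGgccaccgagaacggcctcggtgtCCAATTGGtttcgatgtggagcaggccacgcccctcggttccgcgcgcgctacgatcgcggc
Thrsp, chr7:97417551-97417650, minus strand: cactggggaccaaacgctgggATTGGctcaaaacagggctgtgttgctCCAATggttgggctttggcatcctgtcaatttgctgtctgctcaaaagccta
Srebf1, chr11:60210472-60210571, minus strand: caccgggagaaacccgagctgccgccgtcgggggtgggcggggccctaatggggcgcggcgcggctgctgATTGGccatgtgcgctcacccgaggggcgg
Elovl5, chr9:77917265-77917364, plus strand: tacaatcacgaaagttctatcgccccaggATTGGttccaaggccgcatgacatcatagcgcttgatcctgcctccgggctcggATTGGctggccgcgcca
Acsl1, chr8:46490866-46490965, plus strand: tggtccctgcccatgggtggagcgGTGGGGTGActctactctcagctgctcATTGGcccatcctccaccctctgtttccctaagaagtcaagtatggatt
Lpin2, chr17:71183432-71183531, plus strand: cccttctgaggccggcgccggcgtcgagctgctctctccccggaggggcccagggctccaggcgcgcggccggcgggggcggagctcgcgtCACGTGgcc

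The Fasn run holds CCAAT and its reverse, ATTGG, overlapping in the letters CCAATTGG, beside a further ATTGG upstream. Thrsp holds 1 of each, Elovl5 holds ATTGG 2 times, and Srebf1 holds it 1 time. The table gives 2 starts for Acsl1 and 3 each for Srebf1 and Lpin2, and the start printed was chosen because its 100 bases hold a match. The other Acsl1 start and both other Srebf1 starts hold none in their 100 bases. Of the other Lpin2 starts, 1 holds none and 1 holds ATTGG. Acsl1 has the sterol response element on the opposite strand at -76, and Lpin2 has CACGTG at -9. Many other genes that rose in P5 have no match in the 100 bases before any start given. These are Slc25a1, Acly, Me1, Acaca, Fads2, Acsl4, Lpin1, Cd36 and Fabp3. Acss2, Acacb, Elovl1 and Agpat1 hold CCAAT or ATTGG there at 1 start. RefSeq windows from 250 bases before to 50 after a start were at hand for 25 of the 32 genes, in 35 windows. CCAAT on either strand was in 19 of these 35 windows, from 18 genes, and in 37.4% of all 32851 windows in the table. CACGTG was in 4 of the 35 windows, from 4 genes (Elovl5, Lpin2, Mlxipl and Slc25a1), and in 7.15% of all windows. TCACNCCAC was in 2 of the 35 windows, from 2 genes (Acsl1 and Mlxipl), and in 1.24% of all windows. These are matches of letters, and no binding was measured.

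The genes that supply citrate and acetyl-CoA all rose in pregnant P5 and in pregnant P4. Slc25a1, the mitochondrial citrate carrier, read -0.67 and -0.30 in virgin P5 and 3.91 and 4.37 in pregnant P5, and it read -0.40 and -0.56 in virgin P4 and 1.59 and 0.96 in pregnant P4. Acly, ATP citrate lyase, went from -0.21 and 0.17 to 4.59 and 4.07 in P5, and from -0.84 and -0.37 to 2.30 and 1.28 in P4. Virgin and pregnant arrays did not overlap in either gate for either gene. The P5 rise was 24.6-fold for Slc25a1 (SE 0.30 log2 units, adjusted p = 4.05e-05, limma) and 20.4-fold for Acly (SE 0.45, adjusted p = 0.000403). In P4 the rises were 3.38-fold and 5.27-fold (adjusted p = 0.0188 and 0.0268).

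Me1, malic enzyme, makes cytosolic NADPH for chain synthesis. It was at 0.52 and 0.66 in virgin P5 and 3.31 and 2.99 in pregnant P5, and at -1.39 and -1.72 in virgin P4 and 2.41 and 0.32 in pregnant P4. The rise was 5.90-fold in P5 (adjusted p = 0.0114) and 7.58-fold in P4 (adjusted p = 0.0252), with the pregnant P4 pair far apart. Without virgin P5 replicate 1 or pregnant P5 replicate 1 the P5 call was lost (adjusted p = 0.0706 and 0.0632). Acss2, which makes acetyl-CoA from acetate, rose 7.88-fold in P5 (from -0.23 and -0.46 to 2.38 and 2.89, adjusted p = 0.000374) and 2.81-fold in P4 (from -0.28 and -0.56 to 1.5 and 0.64, adjusted p = 0.0358). In P6 none of these 4 genes was called by limma, nor had any an unadjusted p under 0.05 (0 of 4), with differences of 0.07 to 0.46. In P5 the Me1 difference was 0.68 with the slide as a block (adjusted p = 0.153) and 1.93 with median centring (adjusted p = 0.243).

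Chain synthesis itself showed the same order of gates. Fasn, fatty acid synthase, read 0.39 and 0.29 in virgin P5 and 3.82 and 6.47 in pregnant P5, where the lower value is the saturated spot. In P4 it read 0.38 and 0.02 in virgin and 2.67 and 2.58 in pregnant cells, and in P6 -0.12 and -0.24 against 1.13 and 0.43. Pregnant arrays lay above virgin ones in each of the 3 gates. The P5 difference was 28.0-fold (SE 0.68, adjusted p = 0.00179), while the P4 difference of 5.37-fold did not pass (adjusted p = 0.108). Within the scan that held 1 array of each P5 state, the difference was 6.18 log2 units. With the slide as a block the P5 call was lost (4.32, adjusted p = 0.0705).

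Acaca, the cytosolic acetyl-CoA carboxylase, commits carbon to fatty acid synthesis. It went from -0.58 and 0.22 in virgin P5 to 4.54 and 4.53 in pregnant P5 (26.2-fold, SE 0.29, adjusted p = 3.4e-05), and from -0.03 and 0.19 to 2.11 and 1.76 in P4 (3.62-fold, adjusted p = 0.0137). Acacb, the mitochondrial isoform whose malonyl-CoA limits fatty acid oxidation, went from -0.83 and -0.91 to 5.2 and 5 in P5 (62.6-fold, adjusted p = 4.12e-05). In P4 Acacb went from -0.09 and -0.03 to 2.82 and 1.43 (4.55-fold, adjusted p = 0.0216). No virgin array of either gene reached a pregnant P4 or P5 array.

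Other probes of several of these genes gave smaller differences. The 3 further probes of Acaca, all dimmer, differed by 0.76 to 1.80 log2 units between the P5 states where the brightest probe gave 4.71, and by -0.02 to 0.25 between the P4 states where it gave 1.86. The second probe of Acacb gave 0.79 in P5 and -0.08 in P4, and that of Acly gave 0.68 and -0.02. The 3 further probes of Acss2 gave 1.57, 0.32 and -0.03 in P5, and the last of these had not passed the filter on dim probes. With the mean of a gene's probes in place of the brightest, Acaca was no longer called in P4 (0.53, adjusted p = 0.1), and it was still called in P5. The second probe of Fasn gave differences close to the first, at 4.83 in P5 and 2.07 in P4. Another probe was set beside a called probe in 114 comparisons, and 7 of these had the opposite sign. These counts include the Acss2 probe that had not passed the filter, also among the opposite signs. They leave out a dimmer Dgat2 probe that had passed it.

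**Figure D2:**
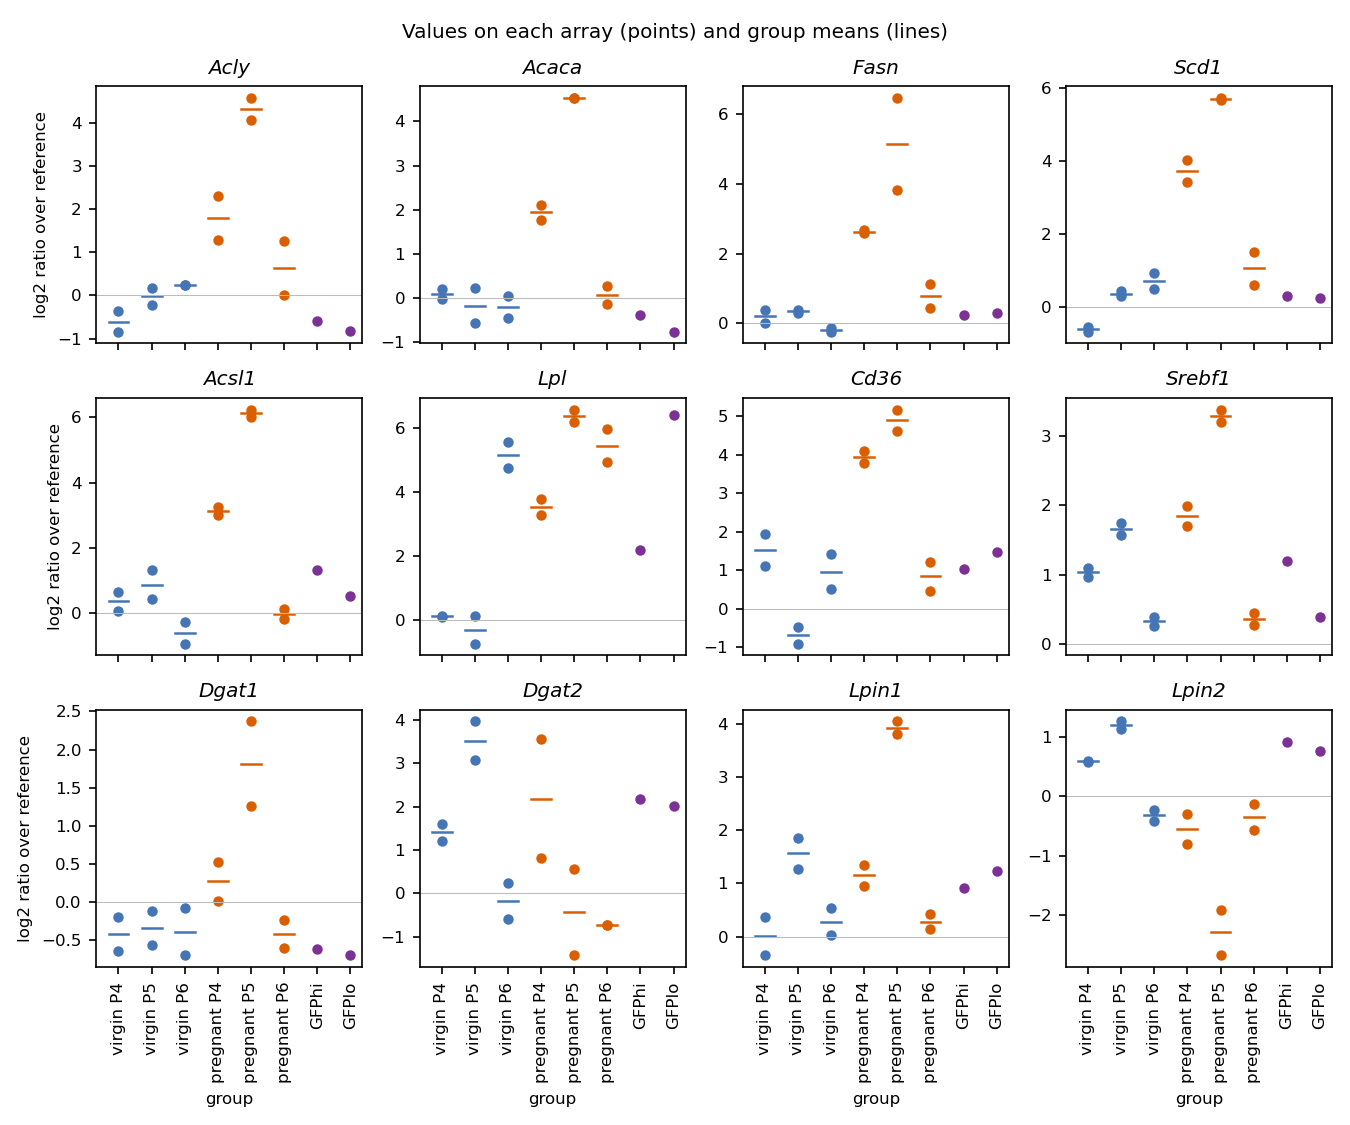
Log2 ratio over reference RNA (y axis) on each array for 12 of the genes, 1 panel per gene, with points for single arrays by gate and state (x axis) including the 1 array each of GFPhi and GFPlo. Pregnant P5 points stand above the virgin P5 points in 10 panels, and below them for Dgat2 and Lpin2.

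Desaturases rose together in P5, where all 4 were called. Scd1, a stearoyl-CoA desaturase that makes monounsaturated chains, read 0.44 and 0.30 in virgin P5 and 5.69 and 5.74 in pregnant P5. In P4 it read -0.53 and -0.67 in virgin and 4.02 and 3.44 in pregnant cells. Pregnant arrays of P4 and P5 stood well above all others, with P6 at 0.95 and 0.49 in virgin and 1.52 and 0.61 in pregnant mice. The rise was 40.6-fold in P5 (SE 0.31, adjusted p = 2.79e-05) and 20.1-fold in P4 (SE 0.31, adjusted p = 0.000637). Of the 15 genes called in P4, Scd1 was the 1 that kept its call under each of the 23 alternative analyses. The Scd1 effect in P5 exceeded that in P4 by 1.01 (SE 0.44), where that of Acaca did so by 2.85 (SE 0.41).

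Scd2, a related desaturase, lay below the reference on all virgin arrays. It went from -2.98 and -3.00 to 0.31 and -0.07 in P5 (8.63-fold, adjusted p = 6.09e-05) and from -3.48 and -3.34 to -2.01 and -2.17 in P4 (2.50-fold, adjusted p = 0.0174). Fads2 and Fads1, desaturases of polyunsaturated chains, rose 20.0-fold and 14.2-fold in P5. Fads2 was at -0.33 and 0.06 in virgin and 3.92 and 4.45 in pregnant P5 (adjusted p = 2.53e-05), and Fads1 at 0.72 and 0.08 and then 4.60 and 3.85 (adjusted p = 0.000285). In P4 neither was called: Fads2 differed by 0.75 (adjusted p = 0.166) and Fads1 by 1.19 (adjusted p = 0.144).

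Of the 3 elongases, 2 rose in P5, and in P4 limma called none, with 1 at an unadjusted p under 0.05. Elovl5, which lengthens polyunsaturated chains, read -0.20 and -0.33 in virgin P5 and 3.01 and 3.46 in pregnant P5 (11.3-fold, adjusted p = 3.72e-05). Its P4 values were 0.51 and 0.53 in virgin and 0.99 and 1.41 in pregnant cells (adjusted p = 0.156). Elovl1, an elongase of very long chains, went from 0.27 and 0.00 to 2.17 and 2.49 in P5 (4.56-fold, adjusted p = 0.000431). Elovl6, which extends palmitate, was called in no comparison: its arrays ran from -0.51 to 2.74, and the pregnant P6 pair alone read -0.51 and 1.72.

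The acyl-CoA synthetases did not move as one. Acsl1 read 1.32 and 0.42 in virgin P5 and 6.24 and 6.02 in pregnant P5, and 0.65 and 0.06 in virgin P4 and 3.24 and 2.99 in pregnant P4. States did not overlap in either gate. The Acsl1 rises were 38.3-fold (SE 0.35, adjusted p = 4.53e-05) and 6.77-fold (SE 0.35, adjusted p = 0.00637), and its further probes gave 4.93 and 5.65 in P5. Acsl4, which prefers arachidonate, rose 4.29-fold in P5 (from -0.22 and -0.66 to 1.98 and 1.34, adjusted p = 0.000787) and differed by -0.35 in P4 (adjusted p = 0.597). Acsl3 was called in no comparison and differed by -0.96 in P5 (adjusted p = 0.0686). Acsl5 was called only between virgin P4 and P5 among the comparisons made, and it differed by -0.23 between the P5 states (adjusted p = 0.575).

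Triglyceride assembly was the most divided step. Of its 7 genes, 3 rose and 2 fell in P5, and in P4 limma called none, with 3 at an unadjusted p under 0.05. Lpin1, a phosphatidate phosphatase, went from 1.86 and 1.28 to 3.80 and 4.04 in P5 (5.08-fold, adjusted p = 0.00123). Agpat1, which adds the second acyl chain, went from -0.42 and -0.40 to 1.69 and 1.59 (4.15-fold, adjusted p = 4.53e-05). Dgat1, which adds the last, went from -0.57 and -0.12 to 1.26 and 2.37 (4.47-fold, adjusted p = 0.00588). Both pregnant arrays lay above both virgin ones in these 3 genes. The Dgat1 call was lost without virgin P5 replicate 1 (adjusted p = 0.0512).

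At the lipin and the diacylglycerol acyltransferase steps, another enzyme of the same reaction fell. Lpin2, also a lipin, read 1.26 and 1.14 in virgin P5 and -2.67 and -1.90 in pregnant P5, an 11.2-fold fall (SE 0.28, adjusted p = 0.000108). Its 3 further, dimmer probes fell by 0.46 to 0.83 log2 units. Dgat2, the diacylglycerol acyltransferase unrelated in sequence to Dgat1, read 3.97 and 3.08 in virgin P5 and 0.57 and -1.43 in pregnant P5, a 15.5-fold fall (SE 0.89, adjusted p = 0.0152). States did not overlap for either gene, although the pregnant Dgat2 pair differed by more than the SE. A second Dgat2 probe fell by 2.78, and a further, dimmer Dgat2 probe that passed the filter was not compared. Without virgin P5 replicate 1 the Dgat2 difference was -3.52 (adjusted p = 0.104), and without pregnant P5 replicate 2 it was -2.96 (adjusted p = 0.0942). In P4, Dgat2 ran from 1.61 and 1.21 to 3.56 and 0.81 and was not called (adjusted p = 0.774), and Lpin2 from 0.60 and 0.58 to -0.80 and -0.29 (difference -1.13, adjusted p = 0.0672). Gpam, the mitochondrial enzyme that adds the first acyl chain, and Agpat2 were called in no comparison, and Gpam lay between -0.35 and 0.46 and Agpat2 between -0.86 and 1.26 on the 14 arrays. Gpam was not well above background in GFPhi.

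All 4 genes of uptake and binding rose in P5 and in P4, and among the 32 genes Fabp3 and Lpl had the largest P5 differences. Lpl, lipoprotein lipase, read -0.72 and 0.13 in virgin P5 and 6.21 and 6.59 in pregnant P5, and 0.15 and 0.11 in virgin P4 and 3.81 and 3.28 in pregnant P4. In P6 it was already high in virgin mice, at 4.75 and 5.59, and read 4.94 and 5.98 in pregnancy. The rise was thus 103-fold in P5 (SE 0.43, adjusted p = 4.04e-05) and 10.7-fold in P4 (SE 0.43, adjusted p = 0.00637), and the P6 states differed by 0.29 (adjusted p = 0.961). GFPlo stood at 6.42 and GFPhi at 2.20, a gap of 4.22 log2 units between single arrays. Fibroblast markers moved with Lpl among virgin arrays: their median was 3.90 and 4.53 in virgin P6, 3.24 in GFPlo, 0.65 in GFPhi and -2.40 to -1.24 in virgin P4 and P5. In pregnant P5 it was -1.78 and -2.12, with Lpl at its P5 peak. Their part in the level of Lpl was not tested.

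Cd36, a fatty acid translocase, went from -0.48 and -0.91 to 5.18 and 4.61 in P5 (48.1-fold, adjusted p = 7.79e-05) and from 1.94 and 1.10 to 3.79 and 4.11 in P4 (5.38-fold, adjusted p = 0.0189). Capillary endothelium also expresses Cd36. Of 12 endothelial markers 1 was called higher in pregnant than in virgin P5, where 10.7% of all genes were called higher. In P4 limma called 0, with 2 at an unadjusted p under 0.05, where 1.49% of all genes were called higher. The part of endothelial cells in the Cd36 rise was not tested. Fabp3, a heart-type fatty acid binding protein also known from mammary tissue, went from -0.55 and -1.28 to 4.23 and 7.69 in P5 and from -1.07 and -1.66 to 4.10 and 5.62 in P4. Pregnant arrays lay above all virgin arrays, also in P6, where the values were -1.66 and -1.94 in virgin and 2.24 and 2.79 in pregnant mice. The saturated spots of Fabp3 were the lower replicate in both pregnant P4 and pregnant P5. With them at their values, Fabp3 differed 117-fold in P5 (SE 0.97, adjusted p = 0.00173) and 74.9-fold in P4 (SE 0.97, adjusted p = 0.0137), while its 19.9-fold difference in P6 did not pass (adjusted p = 0.181). Over the 23 alternatives the Fabp3 difference ran from 5.14 to 8.71 log2 units in P5 and from 5.47 to 7.42 in P4. The P4 call was lost without virgin P4 replicate 1, virgin P4 replicate 2 or pregnant P4 replicate 2, with an adjusted p of up to 0.108. Fabp5, the epidermal-type binding protein, differed less, with 2.28-fold in P5 (from -0.41 and -0.57 to 0.84 and 0.56, adjusted p = 0.00166) and 2.46-fold in P4 (from -0.10 and 0.11 to 1.31 and 1.30, adjusted p = 0.00672).

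Among regulators, Srebf1, the gene of the SREBP-1 transcription factors that drive lipogenic genes, rose 3.13-fold in P5 (from 1.74 and 1.57 to 3.21 and 3.39, SE 0.15, adjusted p = 0.000224). In P4 it rose 1.76-fold (from 1.10 and 0.96 to 1.70 and 1.99, adjusted p = 0.0263), and in P6 it differed by 0.03. Thrsp, a nuclear protein linked to lipogenesis, was the one gene called in all 3 gates. It went from 1.34 and 1.25 to 4.73 and 5.50 in P5, from 1.59 and 1.01 to 4.00 and 4.45 in P4, and from 0.91 and 0.67 to 2.83 and 3.22 in P6. States did not overlap in any gate. The differences were 14.1-fold, 7.57-fold and 4.70-fold (adjusted p = 0.000107, 0.00289 and 0.0394). From the scanner's own log ratios the P5 difference of Thrsp was 2.02 (adjusted p = 0.0606), that in P4 1.56 (adjusted p = 0.331) and that in P6 1.33 (adjusted p = 0.743), each no longer called. The P6 call was also lost without either replicate of virgin P4, virgin P5, virgin P6, pregnant P4 or pregnant P6, with differences of 2.04 to 2.43 and adjusted p of 0.0563 to 0.151. Without either pregnant P5 array 2 of the 32 genes were called in P6. Mlxipl, the gene of the carbohydrate-responsive factor ChREBP, was not called in any gate (P5 difference 1.07, adjusted p = 0.0555).

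**Figure D3:**
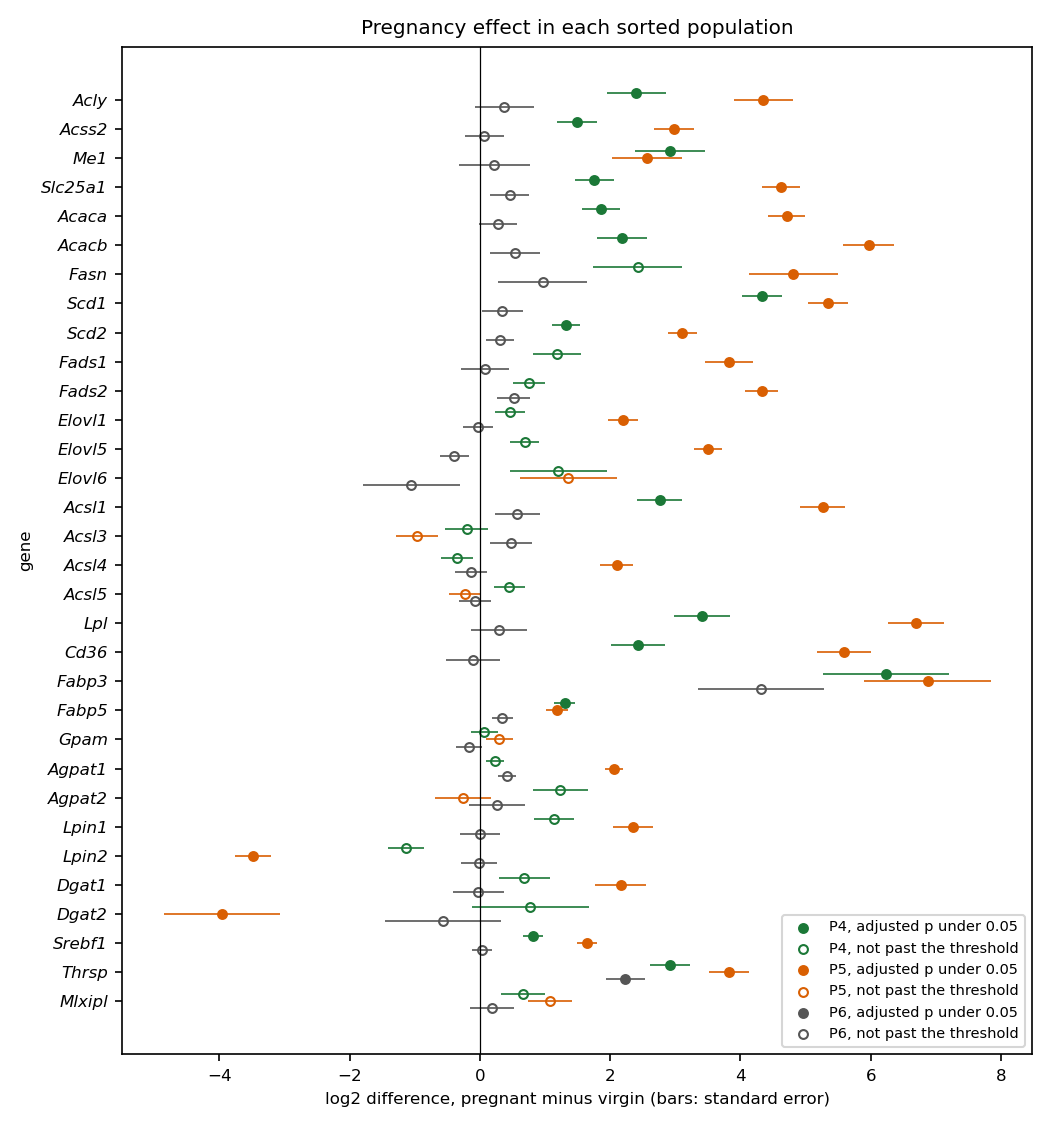
Difference between pregnant and virgin arrays in log2 units (x axis) for the 32 genes (y axis, by role) in P4, P5 and P6, with bars of 1 SE; filled points passed an adjusted p under 0.05 in limma. Filled points number 26 in P5, of which Lpin2 and Dgat2 lie below 0, 15 in P4 and 1 in P6.

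Across gates, the effect of pregnancy was tested for difference among P4, P5 and P6 in one limma F test. It differed for 19 of the 32 genes, where 7.95% of all genes tested were called. With median centring in place of loess it differed for 4 of these 19, and 1.81% of all genes were called. The P5 effect was larger than the P4 effect in 25 of the 32 genes. Called higher in both gates were 15, and 9 were called higher in P5 without being called in P4: Fasn, Elovl1, Elovl5, Fads1, Fads2, Acsl4, Agpat1, Lpin1 and Dgat1. Over all genes tested, 10.7% were called higher in P5 and 1.49% in P4. Calls shared by the gates, or made in P5 alone, were not counted over all genes, nor were larger P5 effects. Of these 9, the test of the difference among gates passed for Elovl1, Elovl5, Fads1, Fads2, Acsl4, Agpat1 and Lpin1, and it did not pass for Fasn and Dgat1. Over the 32 genes the effects in P4 and P5 had a Pearson r of 0.73 and a Spearman rho of 0.78. This describes genes, which are not independent replicates; the gates share no array but share scans.

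The number of P4 calls changed with single arrays. Leaving out virgin P4 replicate 2 left 3 called members, leaving out virgin P4 replicate 1 left 5, and leaving out pregnant P4 replicate 1 left 8 of the 15. The differences that lost their call were 0.83 to 1.10, 0.90 to 1.10 and 0.71 to 1.18 times as large as with all arrays, in that order, and the group concerned then had 1 array. In P5 the count stayed between 23 and 28 when any 1 of the 12 arrays was left out, and 16 of the 26 genes kept their call under each of the 23 alternatives. Median centring in place of loess left 7 called in P4, and in P5 it ended the calls of Me1, Elovl1 (1.51, adjusted p = 0.0642), Acsl4 (1.42, adjusted p = 0.192), Agpat1 (1.46, adjusted p = 0.124), Lpin1 (1.75, adjusted p = 0.0758) and Srebf1 (0.87, adjusted p = 0.321). Both states were scanned within scan 2, with 1 array each in a gate. The P5 arrays of that scan lay on different slides and the P4 arrays on the same slide. Within scan 2 the P5 difference was 4.30 for Acaca, 5.44 for Scd1, 6.46 for Lpl, -3.04 for Lpin2 and -4.52 for Dgat2. In P4 it was 4.11 for Scd1, 3.17 for Lpl, 2.93 for Acsl1 and 7.28 for Fabp3.

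Cell type markers moved along with the same comparisons. In P5, 14 of 18 luminal markers were lower in pregnancy and 1 was higher (Muc1), with array medians of 4.55 and 4.31 in virgin and 0.83 and 1.70 in pregnant P5, where 4 of the 18 were not well above background. All 10 skeletal muscle markers were lower too, with medians of 2.76 and 2.82 in virgin and 0.57 and 0.00 in pregnant P5. Of 11 genes of milk proteins and milk fat globules, 5 were called higher in P5, among them Wap (42.5-fold) and Xdh (24.4-fold). Their array median was 4.71 and 8.17 in pregnant P5, 3.91 and 7.05 in pregnant P4 and 4.54 and 5.99 in pregnant P6, against 1.21 to 3.97 on virgin arrays. In pregnant P6 this median was also above that of virgin P6 (2.26 and 1.21), although limma called none of the 11 there (5 had an unadjusted p under 0.05), and the 32 lipid genes had medians of -0.10 and 0.00.

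Adipocyte markers are of interest because fat cells express most of the pathway. Of 14 such markers, 2 were called higher in pregnant P4 (Lep, 16.6-fold, and Plin4, 6.96-fold) and limma called none in P5 or P6, where 0 had an unadjusted p under 0.05. Their median was 3.34 and 1.39 in pregnant P4, 0.76 and 0.50 in virgin P4, and 1.10 and 0.44 in pregnant P5. Adipoq, which defines fat cells, read 4.54 and 0.65 in pregnant P4 and 2.89 and 1.34 in pregnant P5. Between the pregnant P4 arrays, replicate 1 had the higher value for 9 of the 14 adipocyte markers and replicate 2 for 5, Lep among them (3.92 and 4.78). Of the 32 lipid genes, 20 were higher in replicate 1 and 12 in replicate 2. The part of any of these cell types in the lipid gene levels was not tested. In sorted bulk samples, a change in the share of cells of a type and a change in RNA per cell cannot be told apart.

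**Figure D4:**
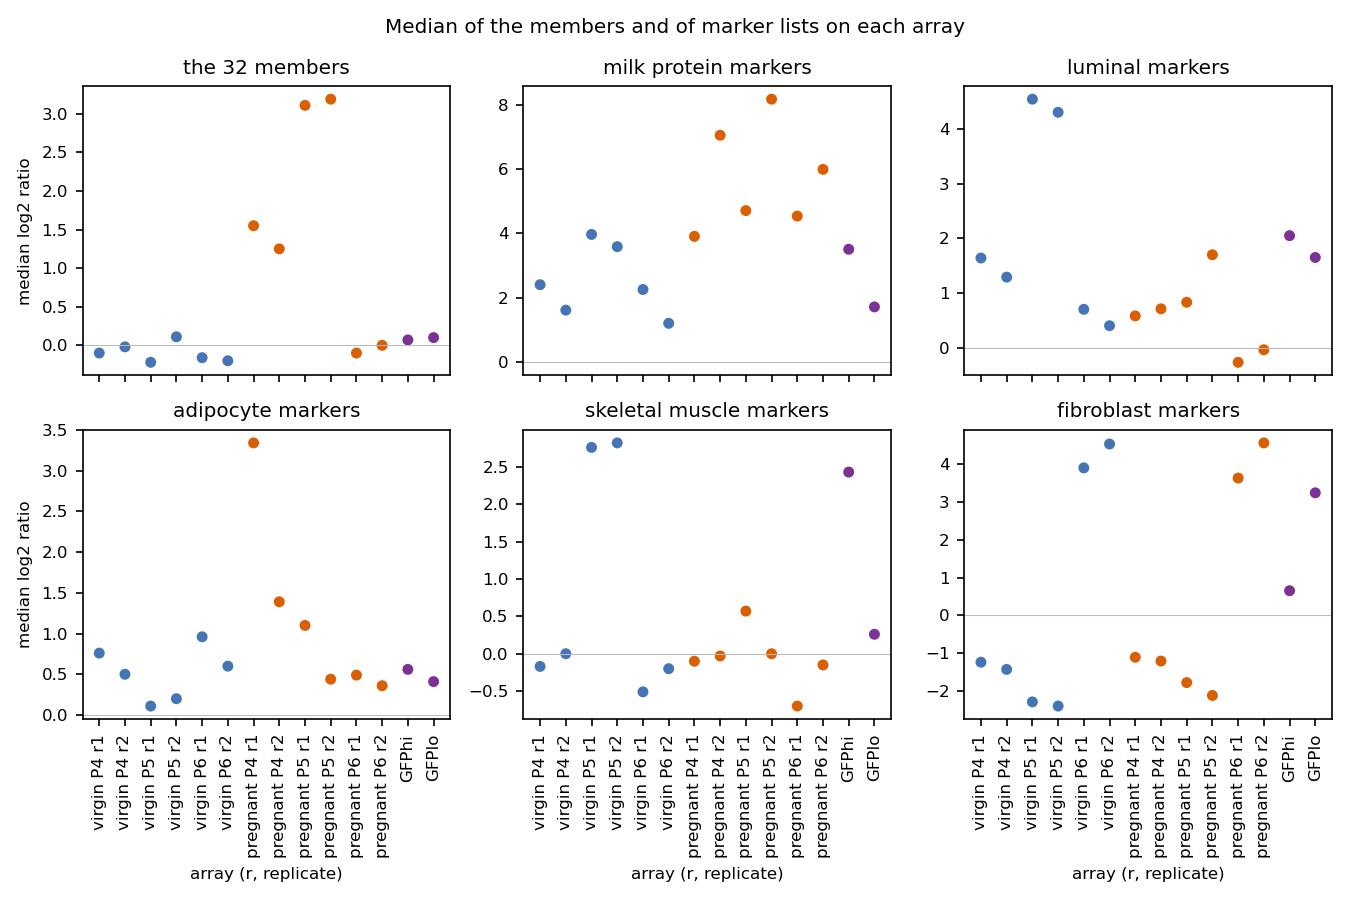
Median log2 ratio over reference RNA (y axis) of the 32 lipid genes and of the milk, luminal, adipocyte, skeletal muscle and fibroblast marker lists on each of the 14 arrays (x axis). The lipid genes peak at 3.11 and 3.19 in pregnant P5, the fibroblast list in P6 (3.63 to 4.56), and the muscle list in virgin P5 (2.76 and 2.82) and GFPhi (2.43).

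Differences between gates were compared within each state as well. Among virgin populations, 5 of 32 genes were called between P4 and P5, 1 higher and 4 lower in P4, where 11.4% of all genes were called (6.56% higher, 4.8% lower). Between P4 and P6, 5 were called, 2 higher and 3 lower in P4, against 10.3% of all genes (4.88% higher, 5.44% lower). Between P5 and P6, 9 were called, 6 higher and 3 lower in P5, against 16.1% of all genes (7.32% higher, 8.82% lower). For 20 of the 32 genes the 3 virgin group means lay within 1 log2 unit, a count that was not made over all genes. Me1, Acsl5, Lpin1 and Srebf1 were lower in virgin P4 than in virgin P5, by 0.62 (Srebf1) to 2.14 (Me1) log2 units, and Cd36 was 4.64-fold higher (adjusted p = 0.0098). Endothelial markers moved with Cd36 here, with 4 of 12 called higher in virgin P4 and array medians of 3.16 and 2.58 against 1.33 and 1.04 in virgin P5. Their part in the Cd36 difference was not tested. Lpl was 32.8-fold lower in virgin P4 than in virgin P6 (adjusted p = 0.000162) and 44.0-fold lower in virgin P5 (adjusted p = 5.26e-05). Scd1 and Scd2 were also lower in virgin P4 than in P6, by 1.32 and 1.00 log2 units, and Acsl4 and Srebf1 higher by 0.96 and 0.71.

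Virgin P5 exceeded virgin P6 in 6 genes: Dgat2 (13.0-fold, adjusted p = 0.0227), Me1, Lpin2, Acsl1, Srebf1 and Lpin1. Besides Lpl, Cd36 and Elovl5 were lower there, by 1.65 and 1.17 log2 units. The further, dimmer probes of Lpin2 gave 0.60, 0.39 and 0.20 log2 units between virgin P5 and P6, where the brightest gave 1.52. Between virgin P4 and P5 the count fell to 1 without virgin P4 replicate 1, virgin P4 replicate 2 or virgin P5 replicate 2, to 2 without virgin P5 replicate 1 and to 3 without either virgin P6 replicate. Between P4 and P6 it fell to 1 without virgin P4 replicate 1, virgin P4 replicate 2 or virgin P6 replicate 2, to 2 without virgin P6 replicate 1 and to 3 without either virgin P5 replicate. Between P5 and P6 it was 4 without virgin P5 replicate 1 and 5 without virgin P5 replicate 2 or virgin P6 replicate 2. With the replicate number as a block, 9 genes were called between virgin P4 and P5 and 9 between virgin P4 and P6. With median centring 0, 1 and 2 genes were called between P4 and P5, P4 and P6, and P5 and P6.

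In pregnant glands the gates stood much further apart. Between pregnant P4 and P5, 22 genes were called (22.6% of all genes), of which 20 were lower in P4 (10.9% of all genes) and 2 higher (11.7%). The median difference was -1.86, against -0.05 over all genes. Among the 20 were Fads2 (9.62-fold, adjusted p = 8.67e-05), Acsl1 (8.10-fold, adjusted p = 0.000547) and Acacb (7.84-fold, adjusted p = 0.000971). The second, dimmer probe of Acacb gave -0.76 log2 units where the brightest gave -2.97. The further probes of Acsl1 gave -2.74 and -3.25. The differences of Fasn (5.74-fold) and Lpl (7.23-fold) include saturated spots. Within scan 2, where neither was saturated, Fasn differed by -3.89, Lpl by -3.31 and Fads2 by -3.23 log2 units between single arrays. Higher in pregnant P4 were Lpin2 (3.35-fold, adjusted p = 0.0026) and Fabp5 (1.52-fold, adjusted p = 0.0313), whose call was lost in 9 of the 23 alternatives. The further, dimmer probes of Lpin2 gave 0.35, 0.12 and 0.22 log2 units where the brightest gave 1.74. Median centring ended 17 of the 22 calls, that of Acacb (-2.15, adjusted p = 0.106) and Fabp5 (0.80, adjusted p = 0.11) included. It left those of Slc25a1, Fads2, Acsl1, Lpin2 and Lpl. Cd36 (-0.94) was not called between these gates.

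Pregnant P5 exceeded pregnant P6 in 24 genes (13.8% of all genes were higher), and Lpin2 was lower (3.85-fold, adjusted p = 0.00107); 26.9% of all genes were called there, and 13.2% were lower. The median difference was 2.66, against 0.05 over all genes. Acsl1 differed 71.8-fold (adjusted p = 8.64e-06), Acacb 28.3-fold (adjusted p = 4.61e-05), Scd1 25.1-fold (adjusted p = 1.83e-05) and Srebf1 7.69-fold (adjusted p = 6.22e-06). The second, dimmer probe of Acacb gave 0.78 log2 units where the brightest gave 4.82. The further probes of Acsl1 gave 5.07 and 5.87. Those of Lpin2, all dimmer, gave -0.34, -0.40 and -0.20 log2 units where the brightest gave -1.95. Lpl differed by 0.94 and was not called. Pregnant P4 exceeded pregnant P6 in 11 genes and was lower in Lpl (3.77-fold, adjusted p = 0.021), with 12.1% of all genes called, 6.2% higher and 5.87% lower. Acsl1 (8.86-fold, adjusted p = 0.000534), Cd36 (8.58-fold, adjusted p = 0.00148) and Scd1 (6.35-fold, adjusted p = 0.000714) led the 11. Of 12 endothelial markers 4 were also called higher in pregnant P4 than in pregnant P6, and their part in the Cd36 difference was not tested. Thrsp, another of them (2.3-fold, adjusted p = 0.0351), differed by -0.06 (adjusted p = 0.976) from the scanner's own log ratios. The count of 12 was 7 without pregnant P6 replicate 2, 6 with median centring and 20 with the replicate number as a block.

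The GFPhi and GFPlo arrays, 1 of each, carry no test. Over the 32 genes their difference ran from -4.22 to 1.01 with a median of 0.06, and 2 genes passed 1 log2 unit, Lpl and Fabp3. Fabp3 read -0.56 in GFPhi and -1.57 in GFPlo. The synthesis genes were close in both: Fasn read 0.24 and 0.31, Acaca -0.38 and -0.77, and Scd1 0.30 and 0.24. Fabp5 was not well above background in GFPlo.

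Other genes of lipid synthesis, from a separate list of 67 of which 66 were tested, also differed between states. In P5, 27 of the 66 were higher in pregnancy (40.9%, against 10.7% of all genes). Lower were 8 (12.1%, near the 10.7% of all genes). The median difference was 0.51, against 0.04 over all genes. Olah, the thioesterase that releases medium chains in mammary cells, rose 35.9-fold (adjusted p = 4.13e-05). Insig1, which retains SREBPs in the endoplasmic reticulum, rose 31.1-fold (adjusted p = 0.000971), and Pcx, pyruvate carboxylase, 9.37-fold (adjusted p = 9.68e-05). Acsbg1, a further acyl-CoA synthetase, fell 11.5-fold (adjusted p = 0.00112). In P4, 8 were higher (12.1%, against 1.49% of all genes) and 1 lower (1.52%, against 2.25%). Olah (11.3-fold, adjusted p = 0.00221) and Plin2 (5.06-fold, adjusted p = 0.0263), a lipid droplet coat, led the rises. In P6, 1 was higher (1.52%, against 0.0465% of all genes), Lpin3, also a lipin (2.94-fold, adjusted p = 0.0496).

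Genes of fatty acid oxidation and lipolysis, a list of 30, had a median difference of -0.02 in P5. There 4 were higher and 4 lower in pregnancy, or 13.3% each way, near the 10.7% each way over all genes tested. Abhd5, a co-activator of triglyceride lipase, rose 7.83-fold (adjusted p = 0.000126) and Ehhadh, a peroxisomal enzyme, 3.85-fold (adjusted p = 0.000429). Cpt1a, which admits fatty acids to mitochondria, fell 4.08-fold (adjusted p = 0.00217), and Acadl, an acyl-CoA dehydrogenase, 2.97-fold (adjusted p = 0.00495). In P4, 3 of the 30 were higher (Abhd5, Ehhadh and Eci1), a larger share than the 1.49% over all genes tested. None of the list was lower there, against 2.25% of all genes. In P6 limma called none, with 1 at an unadjusted p under 0.05.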

How the data were processed

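RNA of sorted mammary cells (Cy5) and reference RNA (Cy3) was measured on 14 two-colour Agilent arrays. The authors deposited scanner output of Agilent Feature Extraction 9.5.3.1, per the submitters' processing notes, with mean and background intensity per spot, spot flags and a log10 ratio. A deposited series table holds log2 ratios of red over green that matched the scanner's at r of 0.990 to 1.000, with column medians of -0.0182 to 0.102.

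Intensities were corrected with normexp (offset 50) and loess-normalized within arrays in limma 3.58.1 (R 4.3.3), leaving out control spots and outlier flags. Where the scanner marked a spot's local background as an outlier (7 to 381 spots in a channel), the median background of that channel replaced it. A probe was kept if, for 1 or more of the 6 replicated groups, all arrays had it well above background in Cy5, and the brightest probe stood for a gene (60 probes for the 32 genes, 59 kept). Probe names came from the files and from RefSeq accessions and synonyms. One model with 6 group means (12 arrays, 6 residual degrees of freedom) gave every test, two-sided. The fit was tested on simulated data in which arrays varied independently, so the shared deviations of same-numbered replicates were not covered. The number of arrays limits the precision.

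The genes and lists were chosen with earlier results of these data known. Any of the 32 genes could be named. From other lists the text could name at most 4 called genes of largest difference per comparison, and adipocyte, milk and muscle markers. Same-numbered replicates deviated together within a state (r of 0.304 to 0.688) and little or not across states (-0.208 to 0.146). Replicate 2 of every group shared a scan; replicate 1 shared one within a state. Slide, scan, replicate block, probe choice, filters, normalization and omission of arrays were varied.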

Additional observations from a re-analysis of the deposited data

Results flagged for a closer look

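For 19 of the 32 genes the effect of pregnancy differed among P4, P5 and P6 by the limma F test, with adjusted p as follows. With median centring 4 of these 19 remained called. Among genes of supply and synthesis it was 0.00255 for Slc25a1, 0.0176 for Acly, 0.0129 for Acss2, 0.00176 for Acaca and 0.00247 for Acacb. Among desaturases it was 0.0012 for Scd1, 0.00376 for Scd2, 0.00115 for Fads2 and 0.00888 for Fads1, and among elongases 0.000912 for Elovl5 and 0.0101 for Elovl1. Acsl1 had 0.00306 and Acsl4 0.00781. In triglyceride assembly it was 0.00229 for Agpat1, 0.0321 for Lpin1 and 0.00388 for Lpin2. Lpl had 0.0021, Cd36 0.00284 and Srebf1 0.00828.

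In all of these but Lpin2 the effect was larger in P5 than in P4, by 0.84 log2 units (SE 0.22) for Srebf1 to 3.78 (SE 0.55) for Acacb. Lpin2 fell further in P5 than in P4, by 2.35 (SE 0.39). The Scd1 effect was lower in P6 than in P4, by 3.99 (SE 0.44). No group had enough arrays to test for a single array far from the others.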

How the results depend on the processing

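Changes of processing and the omission of each of 12 arrays made 23 alternatives. Of 120 called differences, 1 turned its sign: Thrsp between pregnant P4 and P6 was -0.0645 (adjusted p = 0.976) from the series table as well as from the scanner's ratios. Median centring in place of loess called 7 genes in P4, 0 in P6, 4 for the difference among gates, 5 and 6 between pregnant P4 and P5 and P6, and 0, 1 and 2 between virgin P4 and P5, P4 and P6, and P5 and P6. The cause was not tested. A slide block called 12, 11 and 14 genes in the virgin pairs and 0 in P6. A scan block called 9 in virgin P4 minus P5, 9 in virgin P4 minus P6, 20 in pregnant P4 minus P6 and 2 in P6. The replicate block gave 9, 9 and 20 in the same pairs and moved no other count by over 1.5 times. Without scan 3, a smaller set of arrays, 9 were called in virgin P4 minus P5, 8 in P4 and 0 in P6. The scanner's log ratio called 2 in virgin P4 minus P6 and 0 in P6. In virgin P4 minus P6, local backgrounds as given called 2 and the values of the series table called 1.

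With 1 array left out, where a lone array is assumed to vary like the other groups, the counts ran from 3 to 17 in P4, 23 to 28 in P5, 0 to 2 in P6 and 15 to 21 for the difference among gates. Pregnant pairs ran from 18 to 24 (P4 minus P5), 7 to 14 (P4 minus P6) and 23 to 26 (P5 minus P6), and virgin pairs from 1 to 6, 1 to 5 and 4 to 9.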
